A study of Mus musculus with 6 samples.

Results

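Transcripts of the sodium and potassium channel genes were examined in the sciatic nerve of wild-type mice and of Plekhg5-deficient mice. The genes were chosen by their symbols: Scn, a number and the letter a or b, or Kcn, a letter and a number. The rule took 94 of the 39174 gene identifiers in the tables, under 93 symbols, since Kcnb2 is listed under 2 identifiers. The symbols cover more than voltage-gated channels. By class, they hold 9 pore-forming sodium channel alpha subunits and 4 sodium channel beta subunits. There are 31 voltage-gated potassium channels of the Kcna, Kcnb, Kcnc, Kcnd, Kcnh and Kcnq families, 10 electrically silent potassium channel subunits and 4 accessory Kcne subunits. The rest are 15 inward rectifiers (Kcnj), 14 two-pore channels (Kcnk) and 7 ion-activated channels, opened by calcium, sodium or pH (Kcnn, Kcnt and Kcnu). Scn2a and Kcne5 are listed under the older symbols Scn2a1 and Kcne1l, which the rule does not take. RNA came from whole sciatic nerves of 3 wild-type animals, numbered 2, 4 and 5, and 3 Plekhg5-deficient (Plekhg5-/-) animals, numbered 2, 3 and 5. The sample records call the mice adult, name no other allele or treatment and do not give the genetic background. The Plekhg5-deficient mice were described in an earlier study of motoneuron disease, and the sources used here do not restrict the loss of Plekhg5 to a cell type of the nerve.

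Voltage-gated sodium channels open when the membrane is depolarized and carry the upstroke of the action potential, and voltage-gated potassium channels bring the membrane back to rest. In myelinated axons, sodium channels are gathered at the nodes of Ranvier, and Kv1 channels, encoded by Kcna genes, lie beside the nodes under the myelin in the juxtaparanodes. The beta subunits, which cross the membrane once, modulate the alpha subunits and bind adhesion and cytoskeletal proteins. Two-pore and inwardly rectifying potassium channels set the resting potential of neurons, glia and muscle. A sciatic nerve holds axons, Schwann cells, fibroblasts and vessels, whereas the cell bodies of its sensory neurons lie in the dorsal root ganglia and those of its motoneurons in the spinal cord. In whole tissue, fewer cells of a type and less RNA per cell cannot be told apart.

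Values are FPKM (fragments per kilobase of a transcript, corrected for the number of fragments in the library) divided by a scaling factor for each library. Plekhg5, encoding a guanine nucleotide exchange factor, was measured at 3.65, 4.13 and 5.26 FPKM in the wild-type nerves (animals 2, 4 and 5) and 0.141, 0.140 and 0.0521 FPKM in the Plekhg5-deficient nerves (animals 2, 3 and 5). Transcripts of the myelin protein gene Mbp lay between 2346 and 4661 FPKM in the 6 libraries, which marks the presence of myelinating Schwann cells in each. The libraries numbered 5, one of each genotype, stood apart from the other 4. The summed level of 12 neuron and axon genes, among them Tubb3 and Prph, was 145 FPKM in wild-type nerve 5, 104 FPKM in Plekhg5-deficient nerve 5 and between 1018 and 3847 FPKM in the others, and all 11 of these genes that were tested were lower in both. Of the motoneuron genes, Chat and Mnx1 were at 0 in every library. Slc5a7, the choline transporter gene, was at 0.423, 2.82 and 0.335 FPKM in the wild-type and 0.0327, 0.226 and 0.0281 FPKM in the Plekhg5-deficient nerves. Its genotypes did not overlap (adjusted p = 0.974, limma), which held in this direction for 5.88% of all genes tested. Mnx1 and Slc5a7 were listed after values had been seen. Of 11 sensory ganglion genes found in the tables, a list written after values had been seen, 11 were lower in both libraries numbered 5. Their sum was 1.63 and 2.52 FPKM there and between 159 and 555 FPKM in the other nerves. It includes Prdm12, a transcription factor of pain-sensing neurons, at 0.0738 FPKM in wild-type nerve 5, at 0 in Plekhg5-deficient nerve 5 and between 6.21 and 14.3 FPKM elsewhere. The sum of 16 skeletal muscle genes ranged from 366 FPKM in Plekhg5-deficient nerve 3 to 51640 FPKM in Plekhg5-deficient nerve 5, and that of 12 lymph node genes reached 406 FPKM in wild-type nerve 5 against 24.7 to 91.8 FPKM in the others. The 7 haemoglobin and other erythroid genes summed to 229900 FPKM in Plekhg5-deficient nerve 5 and at most 24290 FPKM elsewhere. Many of the channel genes described here were, like the neuron and axon genes, lower in both libraries numbered 5. The part of any of these sums in the channel values was not tested.

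The channel genes that differed most between libraries lie side by side with others that did not. Scn10a (chr9:119608456-119719032, GRCm38) and Scn11a (chr9:119753763-119825456) are neighbours on the minus strand with no other protein-coding gene between them. Scn7a (chr2:66673425-66784914) ends a run with Scn9a (chr2:66480080-66634952) and Scn1a (chr2:66270781-66440840). In all, 25 of the channel genes lie in 11 such runs, in one of which the neighbour of Scn3a is Scn2a, which the rule did not take. Exons of 23 of the channel genes overlap those of another gene in a later annotation (GENCODE M21), mostly on the opposite strand, among them Scn9a with Gm13629 and Kcna6 with Gm26673, and no source used here gives the strand setting of the counting. Scn7a was high in every library, though lower in both libraries numbered 5 than in the others. The 300 bases around the annotated transcription start are shown for Scn10a and Scn11a, which moved together, and for Scn7a. They are RefSeq sequences of GRCm38.p6 on the minus strand (chr9:119718983-119719282, chr9:119825407-119825706 and chr2:66784861-66785160), with each CG dinucleotide, the site of DNA methylation, in capitals.
Scn10a: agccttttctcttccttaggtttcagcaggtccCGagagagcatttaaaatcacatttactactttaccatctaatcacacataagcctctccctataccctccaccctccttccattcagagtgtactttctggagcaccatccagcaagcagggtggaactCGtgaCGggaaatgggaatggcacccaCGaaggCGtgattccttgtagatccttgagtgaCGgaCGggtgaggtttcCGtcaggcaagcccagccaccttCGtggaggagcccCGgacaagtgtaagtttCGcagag
Scn11a: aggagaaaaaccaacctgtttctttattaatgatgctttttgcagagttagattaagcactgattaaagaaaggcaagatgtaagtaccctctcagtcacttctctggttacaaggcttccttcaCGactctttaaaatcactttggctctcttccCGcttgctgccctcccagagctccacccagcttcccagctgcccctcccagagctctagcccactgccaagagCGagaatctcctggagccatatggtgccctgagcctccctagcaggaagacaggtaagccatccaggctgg
Scn7a: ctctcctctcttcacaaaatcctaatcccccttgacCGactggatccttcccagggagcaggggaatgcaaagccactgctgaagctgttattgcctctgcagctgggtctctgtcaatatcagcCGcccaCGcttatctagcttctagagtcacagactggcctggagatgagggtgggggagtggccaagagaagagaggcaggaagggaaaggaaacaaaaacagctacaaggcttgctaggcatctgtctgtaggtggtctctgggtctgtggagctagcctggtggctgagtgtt
The Scn10a window holds 11 CG, and those of Scn11a and Scn7a hold 3 each. The median was 10 over the 65 channel symbols matched to a RefSeq promoter of this length and 7 over 27025 promoters of all genes. TATAAA, the core of a TATA box, was searched on both strands. It was found in 3 of the 65 promoters (4.62%) against 14.2% of all promoters, and it is not in the windows shown.

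Of the 94 channel genes, 9 had a mean of at least 10 FPKM over the 6 libraries, 49 a mean of at least 1 FPKM and 45 a lower mean. The limit for testing, 0.1 FPKM or more as the mean of one genotype, left 85 of them among 21285 genes. The other 9 were Kcnk9, Kcnk10, Kcnk15, Kcnk16, Kcnh4, Kcnv2, Kcne1, Kcnj1 and Kcnj5. Among the most abundant were Kcna1, Scn7a, Kcnj13, Kcnk1, Kcna6, Scn10a, Scn11a and Kcnk2, in that order of their means. Kcnj13 exceeded Kcnk1 in 6 of 6 libraries, and every other pair of neighbours in this order changed places in at least 1 library.

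**Figure D1:**
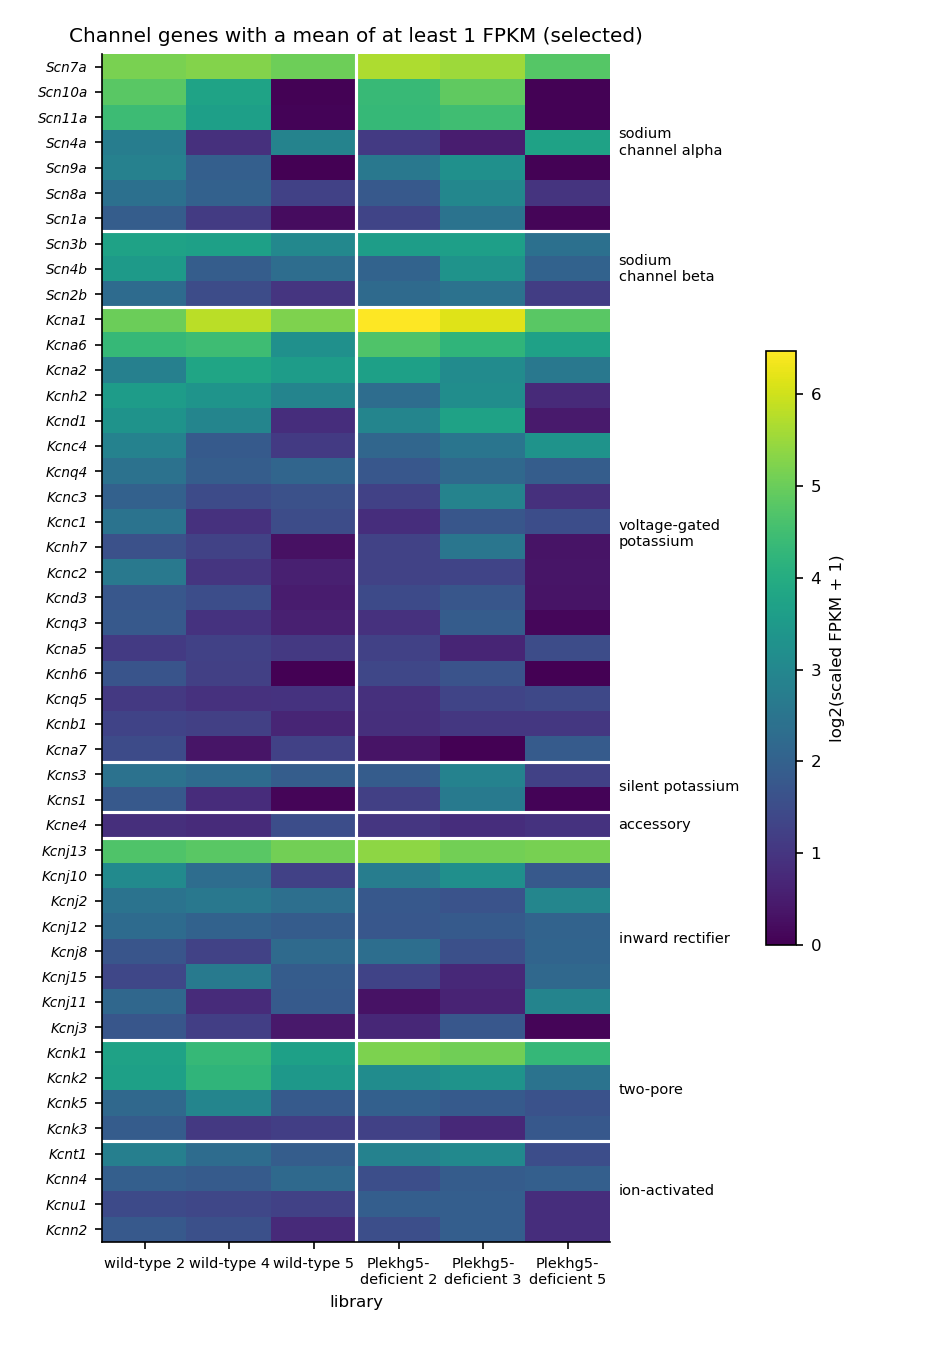
Heat map of log2(scaled FPKM + 1) for 47 channel genes whose mean reached 1 FPKM, with a row for each gene, grouped by class, and a column for each library. Scn10a, Scn11a, Scn9a, Kcnh6 and Kcns1 are near the bottom of the color scale in both libraries numbered 5, while Kcna1, Scn7a and Kcnj13 are near its top in every library.

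Among the sodium channel alpha subunits, the channels of pain-sensing neurons were abundant in 4 nerves and close to 0 in the remaining pair, which included one animal of each genotype. Scn10a, encoding the tetrodotoxin-resistant channel Nav1.8, was measured at 27.1, 12.6 and 0.0284 FPKM in the wild-type nerves (animals 2, 4 and 5) and 19.6, 28.6 and 0.0227 FPKM in the Plekhg5-deficient nerves (animals 2, 3 and 5). Scn11a, encoding Nav1.9, was at 20.5, 11.5 and 0.0468 FPKM in the wild-type and 19.3, 21.5 and 0.0249 FPKM in the Plekhg5-deficient nerves. Scn9a, encoding Nav1.7, which amplifies small depolarizations in sensory and sympathetic endings, was at 6.12, 2.89 and 0.0146 FPKM and at 5.001, 8.58 and 0.0233 FPKM. For these 3 genes the genotypes overlapped, and the low values were those of both libraries numbered 5. The 95% interval that the authors' software gave for Scn10a reached up to 0.0686 FPKM in wild-type nerve 5 and started at 11.9 FPKM in wild-type nerve 4. Such intervals cover the estimate within a library and not the spread between animals. The ratio of Scn10a to Scn11a was 1.32, 1.10, 1.01 and 1.33 in the nerves that held both.

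Scn1a and Scn8a, channels of large sensory and motor axons, varied in the same way. Scn1a, encoding Nav1.1, was at 2.75, 1.17 and 0.154 FPKM in the wild-type and 1.52, 4.50 and 0.0684 FPKM in the Plekhg5-deficient nerves. Scn8a, encoding Nav1.6, the main channel of adult nodes, was at 4.24, 3.04 and 1.40 FPKM and at 2.48, 6.96 and 0.978 FPKM. It was thus lower, though still detected, in both libraries numbered 5. Scn3a, which is expressed mainly in embryonic neurons, did not exceed 0.335 FPKM.

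Scn7a, encoding the sodium-sensing channel Nax, which is not opened by voltage in the usual way and is known from Schwann cells, was the most abundant alpha subunit gene in every library. Scn7a was measured at 35.2, 37.8 and 31.8 FPKM in the wild-type nerves (animals 2, 4 and 5) and 49.7, 45.1 and 26.1 FPKM in the Plekhg5-deficient nerves (animals 2, 3 and 5). Both libraries numbered 5 were thus below the others for Scn7a too, by far less than for Scn10a. The share of Scn7a in the summed FPKM of the 9 alpha subunit genes ran from 34.4% in wild-type nerve 2 to 79.2% in wild-type nerve 5. It was 65.7% in Plekhg5-deficient nerve 5. The mean was 34.9 ± 2.98 FPKM in wild-type and 40.3 ± 12.5 FPKM in Plekhg5-deficient nerves (SD, n = 3 each), a difference smaller than the spread in the latter (adjusted p = 0.982, limma).

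The beta subunit genes were measured in every library. Scn3b, which associates with Nav1.8 among others, was at 12.2, 11.9 and 7.10 FPKM in the wild-type and 11.1, 11.6 and 4.27 FPKM in the Plekhg5-deficient nerves. The 4 nerves with other numbers lay between 11.1 and 12.2 FPKM for Scn3b, and both libraries numbered 5 were lower. Scn4b, which shapes resurgent sodium current, was highest in wild-type nerve 2 (10.5 FPKM) and Plekhg5-deficient nerve 3 (9.08 FPKM) and lay between 2.74 and 4.003 FPKM in the others. Scn2b, its neighbour on chromosome 9, lay between 1.84 and 4.39 FPKM in 4 nerves and at 1.01 and 1.27 FPKM in the libraries numbered 5. Scn2b and Scn3b were therefore lower in both libraries numbered 5 than in the others, and Scn4b was not.

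**Figure D2:**
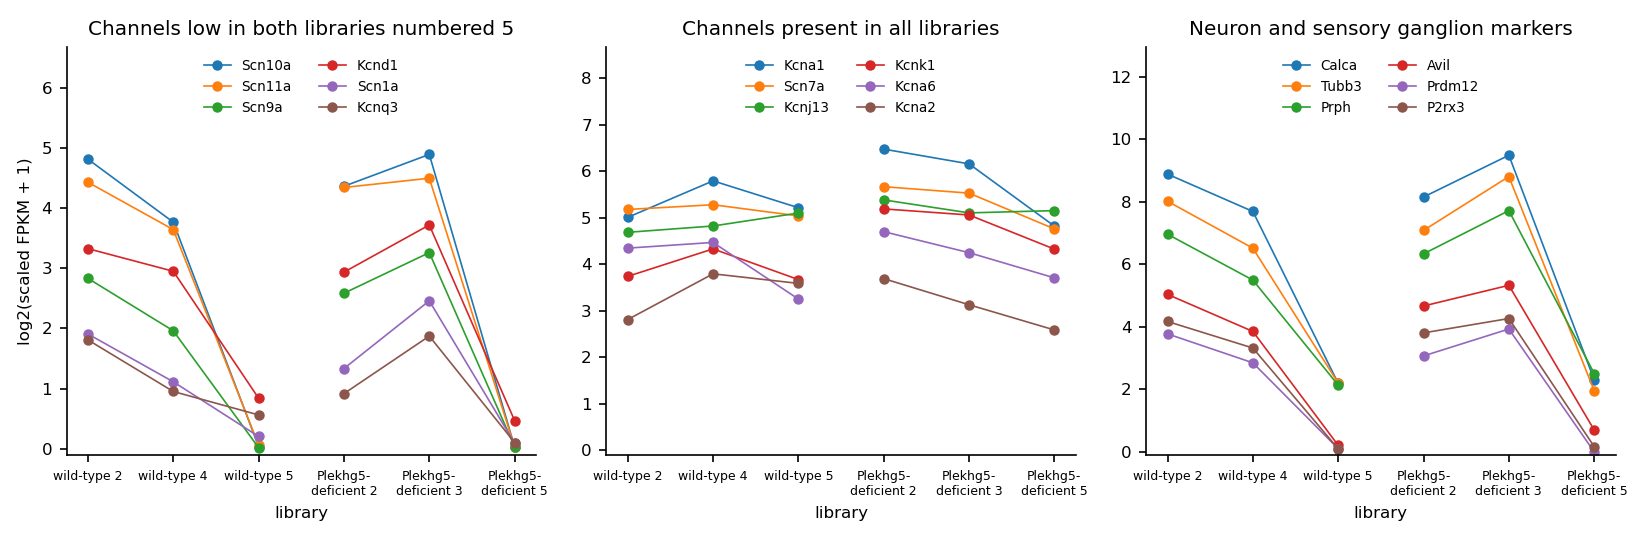
log2(scaled FPKM + 1) in each of the 6 libraries for 6 channel genes that were low in both libraries numbered 5 (left), 6 channel genes present in every library (middle) and 6 genes of neurons and sensory ganglia (right), with lines that only join the points of a gene within a genotype. Scn10a lay near 0 in the same libraries as the ganglion genes Prdm12 and P2rx3, while Kcna1 and Scn7a stayed above 4 on this scale in every library. Of the genes in the middle, Scn7a and Kcna6 were also lower in both libraries numbered 5 than in the others.

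Kcna1 and Kcna2, which encode the juxtaparanodal channel subunits Kv1.1 and Kv1.2, were both expressed in every nerve. Kcna1, the most abundant of the channel genes, was measured at 31.1, 54.4 and 36.1 FPKM in the wild-type and 87.8, 70.3 and 27.2 FPKM in the Plekhg5-deficient nerves. Plekhg5-deficient nerves 2 and 3 lay above the wild-type nerves and Plekhg5-deficient nerve 5 below them, and the log2 fold change was 0.48 (standard error, SE, 0.46, adjusted p = 0.974, limma). Kcna2 was at 6.01, 12.9 and 11.02 FPKM and at 11.9, 7.74 and 5.01 FPKM, with overlap between genotypes and no common order with Kcna1. Kcna6, encoding Kv1.6, was at 19.3, 21.1 and 8.52 FPKM and at 25.0, 18.0 and 12.1 FPKM, lower in both libraries numbered 5. Kcna1 accounted for 25.0% in wild-type nerve 2, the lowest share, and 54.8% in Plekhg5-deficient nerve 2, the highest, of the summed FPKM of the voltage-gated potassium channel genes. Kcna5, another Kv1 gene, known from vascular smooth muscle, lay between 0.588 and 1.82 FPKM. Its locus in the tables (chr6:126532553-126698192) spans that of Kcna1 (chr6:126636463-126645801).

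Of the 30 voltage-gated potassium channel genes tested, 14 were lower in both libraries numbered 5 than in the other 4, against 17.0% of all genes tested, and 2 were higher, against 15.3%. Kcnd1, encoding the A-type channel Kv4.1, was at 9.02, 6.73 and 0.793 FPKM in the wild-type and 6.65, 12.2 and 0.385 FPKM in the Plekhg5-deficient nerves. Kcnq3, which encodes an M-current subunit, was at 2.51, 0.937 and 0.479 FPKM and at 0.890, 2.67 and 0.0765 FPKM. Both libraries numbered 5 were below the others for both genes. Kcnq5, of the same family, did not share this order, with values between 0.860 and 1.63 FPKM and its highest in Plekhg5-deficient nerve 5. Kcnh2, encoding the ERG channel that also repolarizes the heart, was at 10.9, 9.16 and 6.51 FPKM in the wild-type and 3.99, 8.07 and 0.707 FPKM in the Plekhg5-deficient nerves. Its log2 fold change was -1.18 (SE 0.59, adjusted p = 0.974, limma), and the genotypes overlapped. Chosen after their values were seen, Kcnh6 and Kcna4, and the two-pore channel Kcnk18 of sensory neurons, were listed at 0 in both libraries numbered 5. They lay between 1.34 and 2.19 FPKM, 0.536 and 1.63 FPKM, and 0.383 and 0.885 FPKM in the other nerves. The silent subunit Kcns1, chosen in the same way, lay between 0.771 and 5.30 FPKM in those nerves and at 0.0672 and 0.0536 FPKM in the libraries numbered 5.

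Counted over the 85 channel genes tested, 38 (44.7%) were lower in both libraries numbered 5 than in each of the other 4, against 17.0% of all genes tested, and 5 (5.88%) were higher in both, against 15.3%. The libraries were set apart after their values were seen, so no test was made. By class, the 38 were 7 of 9 alpha subunits, 2 of 4 beta subunits, 14 of 30 voltage-gated potassium channels, 3 of 9 silent subunits, 3 of 13 inward rectifiers, 5 of 10 two-pore channels and 4 of 7 ion-activated channels. The 5 that were higher were Scn4a, Kcnq1, Kcnk7, Kcne3 and Kcna3, named here after their values were seen.

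Kcnj13 dominated the inward rectifiers. This gene, encoding Kir7.1, a channel known from transporting epithelia, was measured at 24.7, 27.3 and 33.3 FPKM in the wild-type nerves (animals 2, 4 and 5) and 40.7, 33.4 and 34.5 FPKM in the Plekhg5-deficient nerves (animals 2, 3 and 5). Each Plekhg5-deficient nerve was above each wild-type nerve, the closest pair being 33.3 and 33.4 FPKM. The mean was 1.27-fold higher in Plekhg5-deficient nerves (36.2 ± 3.93 against 28.4 ± 4.39 FPKM, SD, n = 3 each), and the log2 fold change was 0.34 (SE 0.18, adjusted p = 0.974, limma). Exons of Kcnj13 overlap those of Gigyf2 on the opposite strand, and Gigyf2 lay between 12.2 and 16.4 FPKM. Without the strand setting, it is not known how much reads from the shared exons of Gigyf2 add to the values of Kcnj13. Kcnj10, encoding the glial channel Kir4.1, was at 7.51, 3.99 and 1.36 FPKM and at 5.69, 8.30 and 2.49 FPKM, lower in both libraries numbered 5.

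Genotype was compared over the 85 channel genes tested. The two-pore channel genes Kcnk1, Kcnk2 and Kcnk6 gave the smallest p-values, Kcnk1 with higher and Kcnk2 and Kcnk6 with lower levels in Plekhg5-deficient nerves. After adjustment over all genes tested, 0 channel genes were called lower and 0 higher at an adjusted p under 0.05 (limma), against 0.00940% and 0.0282% of all genes. At p under 0.05 before adjustment, 2 were lower and 1 higher, against 2.69% and 2.41% of all genes. In 4 channel genes each Plekhg5-deficient nerve was below each wild-type nerve (Kcnk2, Kcnk6, Kcnd2 and Kcnj6), against 5.88% of all genes, and in 2 each was above (Kcnj13 and Kcne2), against 5.69%. These shares are at or below the background. With 3 animals against 3, an exact permutation test of a single gene cannot give a p below 0.1. Nothing in the sample records says whether the libraries were prepared together, and the p-values measure the spread between these samples.

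Kcnk1 encodes TWIK-1, a weakly rectifying background potassium channel. Kcnk1 transcripts were at 12.3, 19.1 and 11.7 FPKM in the wild-type nerves (animals 2, 4 and 5) and 35.5, 32.3 and 19.0 FPKM in the Plekhg5-deficient nerves (animals 2, 3 and 5). Plekhg5-deficient nerve 5 lay just under wild-type nerve 4, and the other Plekhg5-deficient nerves were above all wild-type nerves. The mean was 2.01-fold higher in Plekhg5-deficient nerves (28.9 ± 8.72 against 14.4 ± 4.08 FPKM, SD, n = 3 each), and the log2 fold change was 0.94 (SE 0.30, unadjusted p = 0.0172, adjusted p = 0.874, limma). Kcnk2 encodes TREK-1, a background channel opened by stretch, heat and lipids. Its transcripts were at 11.9, 17.7 and 9.95 FPKM in the wild-type and 7.90, 8.995 and 4.49 FPKM in the Plekhg5-deficient nerves, without overlap. The mean was 1.85-fold lower (7.13 ± 2.35 against 13.2 ± 4.03 FPKM, SD, n = 3 each), and the log2 fold change was -0.81 (SE 0.31, unadjusted p = 0.0361, adjusted p = 0.959, limma). Kcnk6, encoding TWIK-2, which macrophages express, was at 0.631, 0.611 and 1.11 FPKM in the wild-type and 0.303, 0.328 and 0.409 FPKM in the Plekhg5-deficient nerves. Its groups did not overlap, and its log2 fold change was -0.40 (SE 0.15, unadjusted p = 0.0360, adjusted p = 0.959, limma). Exons of Kcnk1 and of Kcnk2 overlap annotated antisense transcripts, Gm45875 and A430027H14Rik, whose reads cannot be told apart from theirs without strand.

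The ratio of Kcnk1 to Kcnk2 within a library does not depend on scaling between libraries. This ratio, chosen after the values of both genes were seen, was 1.04, 1.08 and 1.18 in wild-type nerves 2, 4 and 5 and 4.49, 3.59 and 4.24 in Plekhg5-deficient nerves 2, 3 and 5. The mean was 1.10 ± 0.0714 in wild-type and 4.11 ± 0.464 in Plekhg5-deficient nerves (SD, n = 3 each). Wild-type nerve 5 had the highest wild-type ratio, and Plekhg5-deficient nerve 5 lay between the other nerves of its genotype. Of the summed FPKM of the two-pore channel genes, Kcnk1 made up 39.4 ± 3.65% in wild-type and 66.7 ± 2.48% in Plekhg5-deficient nerves, and Kcnk2 35.8 ± 1.60% and 16.4 ± 1.72% (SD, n = 3 each). Because the pair was picked for its difference, these values are a description without a test.

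**Figure D3:**
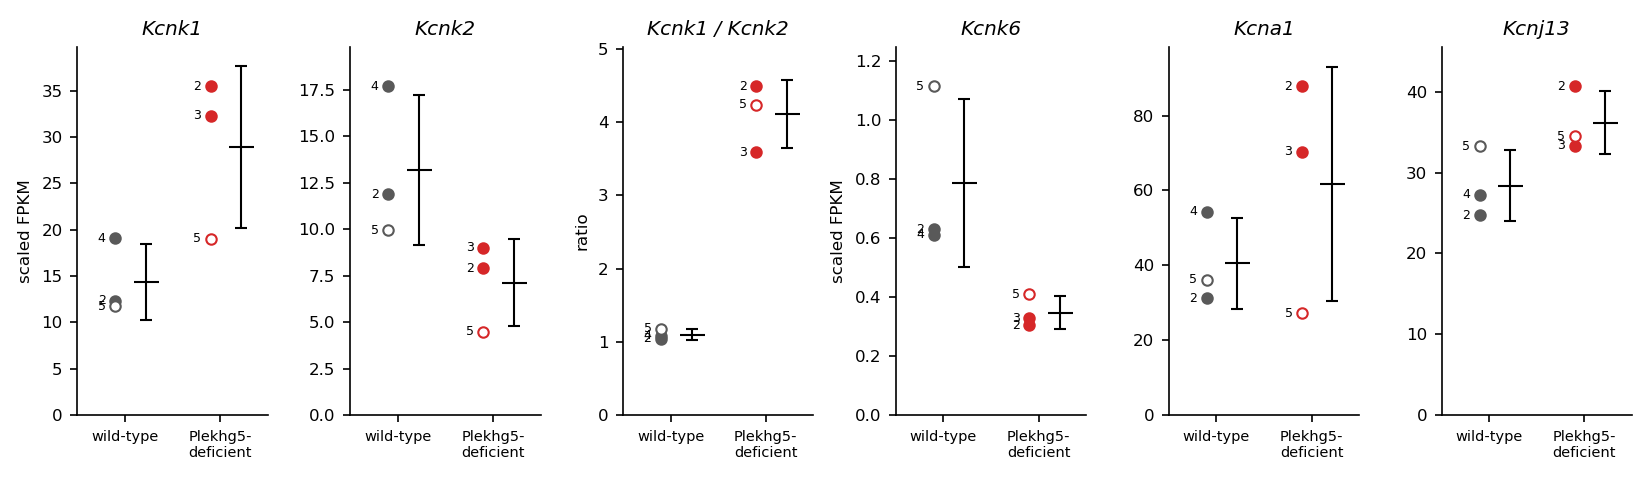
Scaled FPKM of Kcnk1, Kcnk2, Kcnk6, Kcna1 and Kcnj13 and the ratio of Kcnk1 to Kcnk2 in the 3 wild-type (grey) and 3 Plekhg5-deficient nerves (red), with the animal number beside each point, open circles for animals numbered 5, and horizontal marks and bars for the mean and SD. The ratio lies between 1.04 and 1.18 in wild-type and between 3.59 and 4.49 in Plekhg5-deficient nerves, while the values of Kcnk1 and Kcna1 overlap.

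Over the 85 channel genes tested, 45 had a log2 fold change below 0 and 40 above, with a median of -0.04 against 0.01 over all genes tested. The sign of this median rested on single libraries. It was 0.13 without wild-type nerve 2 and -0.20 without wild-type nerve 5. By class, the median was 0.15 for alpha subunits, -0.02 for beta subunits, -0.05 for voltage-gated potassium channels, -0.07 for silent subunits, 0.01 for Kcne subunits, -0.18 for inward rectifiers, -0.08 for two-pore channels and 0.06 for ion-activated channels. For Scn10a and Scn11a the log2 fold changes had standard errors of 1.65 and 1.55 over the 6 libraries. Without both libraries numbered 5 the log2 fold changes were 0.33 and 0.37, with standard errors of 0.39 and 0.30. Kcnd2, encoding the A-type channel Kv4.2, and Kcnj6 and Kcne2 did not overlap between genotypes but did not exceed 0.705, 0.184 and 0.265 FPKM in any library.

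**Figure D4:**
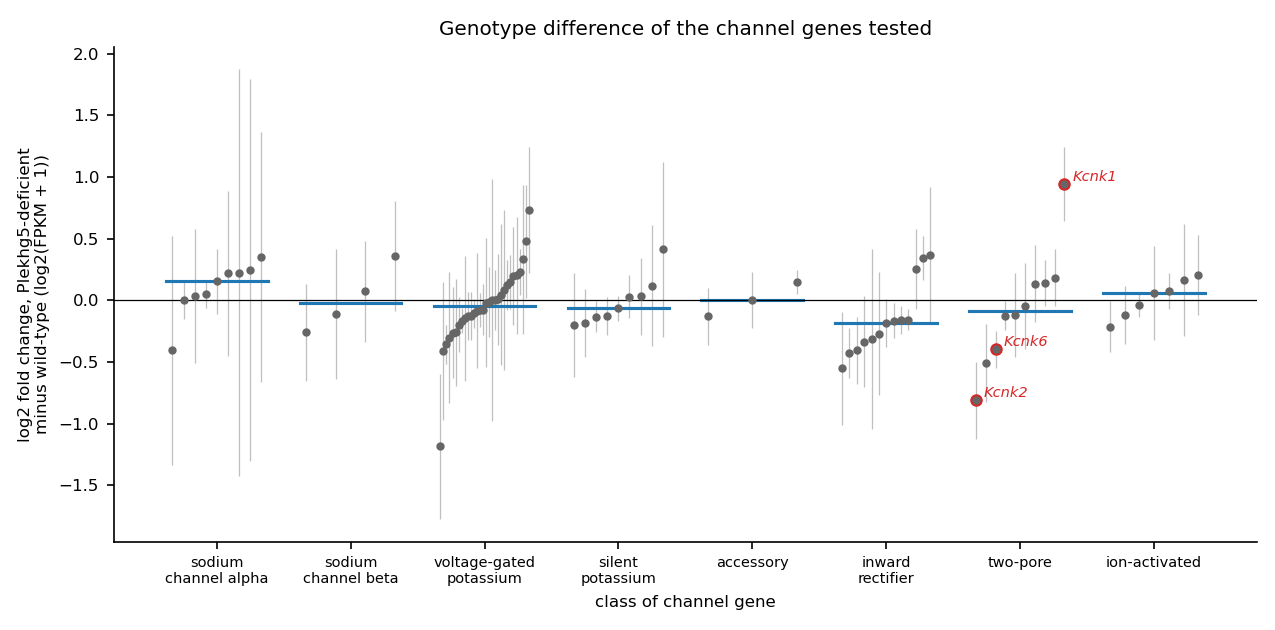
Log2 fold change between Plekhg5-deficient and wild-type nerves, on the log2(FPKM + 1) scale, for the 85 channel genes tested, as points with their standard error, ordered by value within each class, with a blue line at the median of the class. Kcnk1, Kcnk2 and Kcnk6, in red, are the 3 genes at an unadjusted p under 0.05, and the widest bars are those of Scn10a and Scn11a.

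Leaving out both libraries numbered 5 set wild-type nerves 2 and 4 against Plekhg5-deficient nerves 2 and 3. In that fit 0 of 85 channel genes were called lower and 0 higher (limma), against 0% and 0.0426% of all genes. Before adjustment, at p under 0.05, 3 were lower and 3 higher, against 3.48% and 2.74%. Without overlap, 18 were lower and 10 higher, against 18.3% and 17.9% of all genes. Kcna1 was among the higher genes, with means of 79.0 against 42.8 FPKM and 0.90 as the log2 fold change (SE 0.32, adjusted p = 0.768, limma), whereas its difference on this scale between the animals numbered 5 was -0.40. Kcnk1 had a log2 fold change of 1.08 in that fit (adjusted p = 0.637) and a difference of 0.65 between the animals numbered 5. For Kcnk2 the values were -0.74 (adjusted p = 0.764) and -0.997. Kcnk1 and Kcnk2 thus had the same direction in both subsets, and Kcna1 did not. The first pair stood out by p-value over these same libraries, so the shared direction is a description and no independent support. The other genes at an unadjusted p under 0.05, named after their values were seen, were Kcnj2 (-0.84) and Kcnd2 (-0.51) among the lower and Kcnu1 (0.52) among the higher, with adjusted p of 0.677, 0.799 and 0.803 (limma). Between the animals numbered 5 their differences were 0.611, -0.118 and -0.405. Kcnj2 and Kcnu1 thus changed direction, as Kcna1 did, and Kcnd2 did not.

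Of the channel genes known from skeletal muscle, Scn4a, Kcnj11, Kcna7 and Kcnj2 were each highest in Plekhg5-deficient nerve 5, the library with the most muscle transcripts. Scn4a, encoding Nav1.4, the channel of the muscle fibre, was at 5.73, 0.863 and 6.49 FPKM in the wild-type and 1.16, 0.420 and 12.2 FPKM in the Plekhg5-deficient nerves. Kcnj11, encoding the pore of the ATP-sensitive potassium channel, was at 3.46, 0.743 and 2.56 FPKM and at 0.241, 0.554 and 6.51 FPKM. Kcna7, a Kv1 gene of muscle, was at 1.77, 0.299 and 1.38 FPKM and at 0.258, 0 and 2.62 FPKM. Wild-type nerves 2 and 5 came next for each of these genes, as for the sum of the 16 skeletal muscle genes. Against the order of that sum, Kcnj11 was higher in Plekhg5-deficient nerve 3 than in nerve 2. Scn4a also departed from it, being higher in wild-type nerve 5 than in nerve 2, and in Plekhg5-deficient nerve 2 than in wild-type nerve 4. Kcnj2, encoding Kir2.1, was at 4.55, 5.03 and 4.17 FPKM and at 2.45, 2.15 and 6.89 FPKM. It did not follow the muscle sum in the 3 wild-type nerves, whose summed muscle levels were 19590, 3056 and 13920 FPKM.

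**Figure D5:**
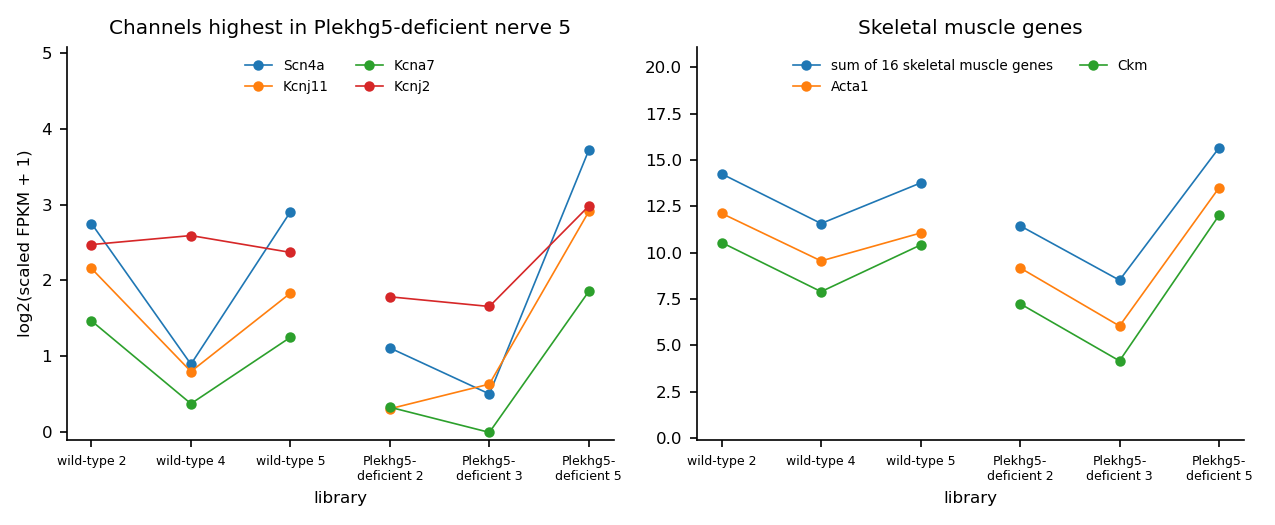
log2(scaled FPKM + 1) in each of the 6 libraries of Scn4a, Kcnj11, Kcna7 and Kcnj2 (left) and of the summed 16 skeletal muscle genes with Acta1 and Ckm (right), with lines that only join the points of a gene or sum within a genotype. Scn4a and the muscle sum are both highest in Plekhg5-deficient nerve 5 and lowest in Plekhg5-deficient nerve 3.

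The named channel genes known from immune and vascular cells had means of at most 2.79 FPKM. Kcna3, encoding the Kv1.3 channel of T-cells, was at 0, 0.177 and 0.648 FPKM in the wild-type and 0.0573, 0.154 and 0.222 FPKM in the Plekhg5-deficient nerves, highest in wild-type nerve 5, the library with the most lymph node transcripts. Kcnn4, a calcium-activated channel of T-cells and macrophages, lay between 1.94 and 3.63 FPKM and was also highest in that library. Kcnk13, a channel of microglia and macrophages, lay between 0.417 and 1.13 FPKM and was lowest there. The sum of 7 macrophage genes found in the tables was 398 and 477 FPKM in the libraries numbered 5 and between 178 and 246 FPKM in the others. Kcnk13 did not follow this order. Kcnk6 did not follow it over all libraries, though within each genotype it was highest in the library numbered 5. Kcnj8, the ATP-sensitive channel gene of pericytes and smooth muscle, lay between 1.41 and 4.05 FPKM, with overlap between genotypes.

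Partner subunit genes, whose products assemble with channels, were counted in the same way. Their list also holds Kcnma1, itself a pore-forming potassium channel gene whose symbol the rule does not take, and Kcnmb genes for its partners. Of the 21 genes in this list, 20 were tested, 0 were called, and 0 passed an unadjusted p under 0.05 in either direction (limma). Their median log2 fold change was 0.07, 14 were lower in both libraries numbered 5 (17.0% of all genes tested) and 3, Abcc9, Lrrc52 and Kcnma1, were higher in both (15.3% of all genes tested). Fgf13, a cytoplasmic partner of sodium channels, was at 76.1, 56.1 and 7.49 FPKM in the wild-type and 57.9, 99.0 and 6.60 FPKM in the Plekhg5-deficient nerves. Kcnip4, a calcium-binding partner of Kv4 channels, was at 48.9, 28.5 and 0.775 FPKM and at 35.2, 80.1 and 0.564 FPKM. Of 20 genes that anchor channels at nodes and juxtaparanodes, 19 were tested and 0 were called, with 0 at an unadjusted p under 0.05, 15 lower in both libraries numbered 5 and 0 higher in both, beside the same 17.0% and 15.3% of all genes. Cntnap2, the Caspr2 gene that holds Kv1 channels in the juxtaparanode, was at 12.3, 6.07 and 0.745 FPKM and at 7.22, 38.2 and 2.83 FPKM, while Gldn, which Schwann cells secrete at the node, was at 13.7, 36.7 and 12.2 FPKM and at 29.7, 27.8 and 14.2 FPKM. Cntnap2 was thus lower in both libraries numbered 5 than in the others, and Gldn was not.

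Among 21 genes of calcium, HCN and leak channels, 0 were called (limma). At p under 0.05 before adjustment 1 was lower and 0 higher, against 2.69% and 2.41% of all genes. The lower gene was Hcn4, a pacemaker channel gene, named after its values were seen, at 3.59, 7.94 and 4.39 FPKM in the wild-type and 1.44, 1.08 and 2.28 FPKM in the Plekhg5-deficient nerves. Its genotypes did not overlap (adjusted p = 0.681, limma), which held in this direction for 5.88% of all genes. Among 10 sodium pump genes, which restore the gradients that the channels use, 0 were called. At p under 0.05 before adjustment 0 were lower and 1 higher, beside the same 2.69% and 2.41% of all genes. Atp1b1, a pump subunit gene of neurons, was at 129, 43.1 and 14.4 FPKM and at 51.5, 172 and 15.7 FPKM, in the order of the neuronal channels, while Atp1b3, another beta subunit gene of the pump, lay between 239 and 384 FPKM in the 6 libraries.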

How the data were processed

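Poly(A) RNA libraries of 6 sciatic nerves were sequenced, and the authors deposited 1 table of FPKM per library. Per the labels and the study's methods, reads were trimmed with Trim Galore 0.4.0 and mapped to GRCm38 with STAR, and FPKM were estimated per gene with Cufflinks 2.2.1. No source used here gives the annotation release, the strand setting, the read depth or counts, so the precision within a library is known only from the 95% intervals of Cufflinks.

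Where an identifier had several rows (19 identifiers), the rows were added up. A gene was tested if its mean reached 0.1 FPKM in one genotype or both. Each library was scaled by a median-of-ratios factor (0.745 to 1.12), and limma 3.58.1 (R 4.3.3) was run on log2(scaled FPKM + 1), with genotype in the model and a trend in the variance. Benjamini-Hochberg adjustment covered all genes tested, and calls were made at an adjusted p under 0.05. This scale understates changes of low genes. The study's own test needs alignments and was not used. Figures were drawn with matplotlib 3.10.9.

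The channel genes and lists were chosen with earlier results of these data known. Named were the 15 channel genes with the highest mean, those at an unadjusted p under 0.05, and those known from axons, Schwann cells, muscle, vessels and immune cells. Exceptions are marked as chosen after their values were seen. A few of these genes are not reported here. Scaling, pseudocount, filter, weights, trend, a replicate block and omitted libraries were varied.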

Additional observations from a re-analysis of the deposited data

How the results depend on the processing

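With limma, 0 channel genes were called lower and 0 higher in each alternative run, including each omitted library. The log2 fold changes of 12 named genes (Kcna1, Kcnd2, Kcne2, Kcnh2, Kcnj2, Kcnj6, Kcnj13, Kcnk1, Kcnk2, Kcnk6, Kcnu1 and Scn7a) kept their direction in 174 of 176 alternative fits, with a lowest adjusted p of 0.196. The exceptions were Scn7a with FPKM as deposited (-0.008) and without Plekhg5-deficient nerve 2, and the cause was not tested. Over each omitted library Scn7a ranged from -0.024 to 0.429. Kcnk2, Kcnk6, Kcnd2, Kcnj6, Kcnj13 and Kcne2 did not overlap between genotypes over all libraries. Omitting a library could hardly reverse them, so the count of 174 was largely set by the choice of genes. At an unadjusted p under 0.05, 8 lower and 3 higher genes were found with array weights, 1 lower and 0 higher with FPKM as deposited, 1 lower with a minimum of 1 FPKM and 2 higher with no minimum. Without overlap between genotypes there were 0 higher genes with FPKM as deposited, and 1 lower and 1 higher with a minimum of 1 FPKM. Leaving out both libraries numbered 5 gave 3 higher genes at an unadjusted p under 0.05, and 18 lower and 10 higher without overlap. The shares over all genes in that fit were 2.74%, 18.3% and 17.9%. Over the omission of each library in turn, the lower genes at an unadjusted p under 0.05 ranged from 0 to 4 and the higher from 0 to 3. Those without overlap ranged from 4 to 13 and from 3 to 8, and the median log2 fold change from -0.197 to 0.127. Apart from the fit without both libraries numbered 5, shares over all genes are not given for these alternatives. Those counts are therefore no result about the channel genes.

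A replicate block over the 2 shared animal numbers gave 5 lower genes at an unadjusted p under 0.05 and a median of -0.163. Nothing says that the numbers pair the animals, and the correlation of same-numbered deviations was 0.07 for number 2 and 0.58 for number 5, so the block was not used.

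Added after seeing the data, 25 channel genes were lower in both libraries numbered 5 with a minimum of 1 FPKM. In both, 2 were higher with that minimum and also with FPKM as deposited. Shares over all genes are not given for these settings. The fewer genes tested set the count under that minimum, and for deposited FPKM the cause was not tested. Read depth is unknown, and levels near 0 rest on few fragments.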

Other observations

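Scn2a1 and Kcne1l, the older symbols of Scn2a and Kcne5, were outside the rule on symbols. Scn2a1, encoding Nav1.2 of central neurons, was measured at 0.711, 0.575 and 0.876 FPKM in the wild-type nerves (animals 2, 4 and 5) and 0.764, 0.769 and 0.348 FPKM in the Plekhg5-deficient nerves (animals 2, 3 and 5) (log2 fold change -0.09, standard error 0.17, adjusted p = 0.983, limma). Kcne1l lay between 0.141 and 0.715 FPKM. The epithelial sodium channel genes Scnn1a, Scnn1b and Scnn1g, which are not opened by voltage, did not exceed 0.678, 0.434 and 0.0434 FPKM.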
